A study of Danio rerio with 4 samples.

Results

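The 10 genes described here are the galectin family as it appears in nuclear RNA from the heads of zebrafish larvae, out of 31952 genes in the count table. lgals3b and lgals1l1 were taken by their Ensembl identifiers and the others by zebrafish symbol, with lgals3bpb found through its synonym lgals3bp.1. The 2 rows named LGALS8 stand for lgals8a and lgals8b, and the names do not tell which is which, so they are given by identifier. The study carried lgals3b and lgals1l1 forward as its galectin 3 and galectin 1 because of this comparison, so their direction here is not independent evidence.

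Galectins are lectins that bind β-galactoside sugars on glycoproteins. They are made in the cytosol without a signal peptide, leave the cell by an unconventional route, and outside it cross-link surface receptors and matrix. In mammals galectin 1 and galectin 2 have a lone carbohydrate-recognition domain and act as dimers, galectin 3 joins such a domain to a proline- and glycine-rich tail through which it forms oligomers, and galectin 8 and galectin 9 carry a pair of different domains on the same chain. In mammalian tumours galectin 1 and galectin 3 are known for effects on immune cells, blood vessel growth and cell adhesion. The galectin 3 binding protein is not a galectin but a secreted glycoprotein of the scavenger receptor cysteine-rich family.

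There were 2 control and 2 NRas+ libraries, each from pooled heads at 5 dpf. All 4 came from a cross of fish carrying mpo:BirA-Citrine with bactin:Avi-Cerulean-Rangap (ox128) to fish carrying kita:LexPR-Cerulean with PcrysB:ECFP-LexOP:mCherry-NRas (ox130). By design the mpo promoter drives the biotin ligase in neutrophils, whose nuclei were to be captured, and the kita promoter drives the inducible oncogene in melanocytes. The study's list of lines gives the number ox130 to a line driven by mitfa and not kita, so the labels and the list differ. NRas+ larvae were kept in 1 µM mifepristone, the ligand of LexPR, from 24 hpf, while controls had no drug. In these libraries drug and oncogene therefore cannot be told apart. The study assayed the drug separately by RT-qPCR, in nuclei from larvae without the oncogene transgenes. It reported little or no change in the galectin genes it carried forward. By qPCR it also reported these genes as higher in NRas+ larvae. Those assays are not part of the counts used here. The study selected embryos that expressed mCherry-NRas, which is made only with mifepristone, so controls could not be selected this way.

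The libraries held between 30619195 and 42365244 counts. Levels are given as CPM, counts relative to the library total, after scaling by TMM, which corrects library totals for composition. TMM factors ran from 0.861 to 1.405, the highest being that of control 2. Replicates were far apart relative to counting noise (mean chi-square per gene of 158 in controls and 51.2 in NRas+). That mean used library totals before TMM scaling. Genes with many counts weigh most in it, so it does not describe a typical gene. The labels name neutrophils, but the 19 neutrophil rows matched took between 0.00504% and 0.00859% of the counts, against 18.6% to 37.9% for 25 skeletal muscle rows. lyz, the lysozyme gene of myeloid cells, was at 12.6 CPM in control 1, 4.20-fold lower in control 2, and at 10.9 and 12.6 CPM in NRas+. srgn, a proteoglycan gene of blood cell granules, was at 17.9 and 36.4 CPM in controls and at 17.2 and 24.2 CPM in NRas+. The whole list summed to 57.3 and 61.1 CPM against 58.6 and 74.3 CPM, and srgn held 36.4 of the 61.1 CPM in control 2. Of 15 neutrophil rows tested, 10 had a log2 fold change above 0 in NRas+ and 5 below, where 47.9% of all genes were above. In 5 both NRas+ libraries lay above both controls and in 1 below them, beside 20.5% and 21.8% of all genes. mpx was not matched under that name, and NCF4, cybb, cxcr1, CXCR1, CSF3R and cebp1 had no count in at least 1 library. In such bulk libraries fewer cells of a type cannot be told apart from less RNA per cell, nor can the cells that hold a galectin transcript be named.

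Members of the family lay on both sides of 0. All 10 members passed the filter on low counts, and 6 had at least 10 counts in every library. lgals9l1, with 5 counts in control 1, passed only with an NRas+ library. lgals3bpb and both LGALS8 rows passed only with a control library. The filter could therefore partly set the direction of these low-count genes. Of all 10, 7 had a log2 fold change above 0 in NRas+ and 3 below 0, where 47.9% of all 20099 genes tested were above 0. The fold changes ran from -1.29 to 2.12 with a median of 0.80 on the log2 scale, beside a median of -0.04 over all genes tested. Of the 10 members 0 passed the threshold of 0.05 by edgeR (quasi-likelihood fit, Benjamini-Hochberg adjustment over all genes), where 0.169% of all genes passed, 0.129% as higher and 0.0398% as lower. At an unadjusted p under 0.05, 3 members were higher (lgals3b, lgals1l1 and lgals2a) and none was lower, beside 5.16% and 6.11% of all genes. With DESeq2, 2 of the 8 members that received an adjusted p were higher, lgals3b and lgals1l1, beside 1.26% of all genes, and none was lower, beside 0.79%. Those 2 are the genes that the study carried forward from its own DESeq2 comparison. Counts that include them were therefore partly fixed in advance.

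**Figure D1:**
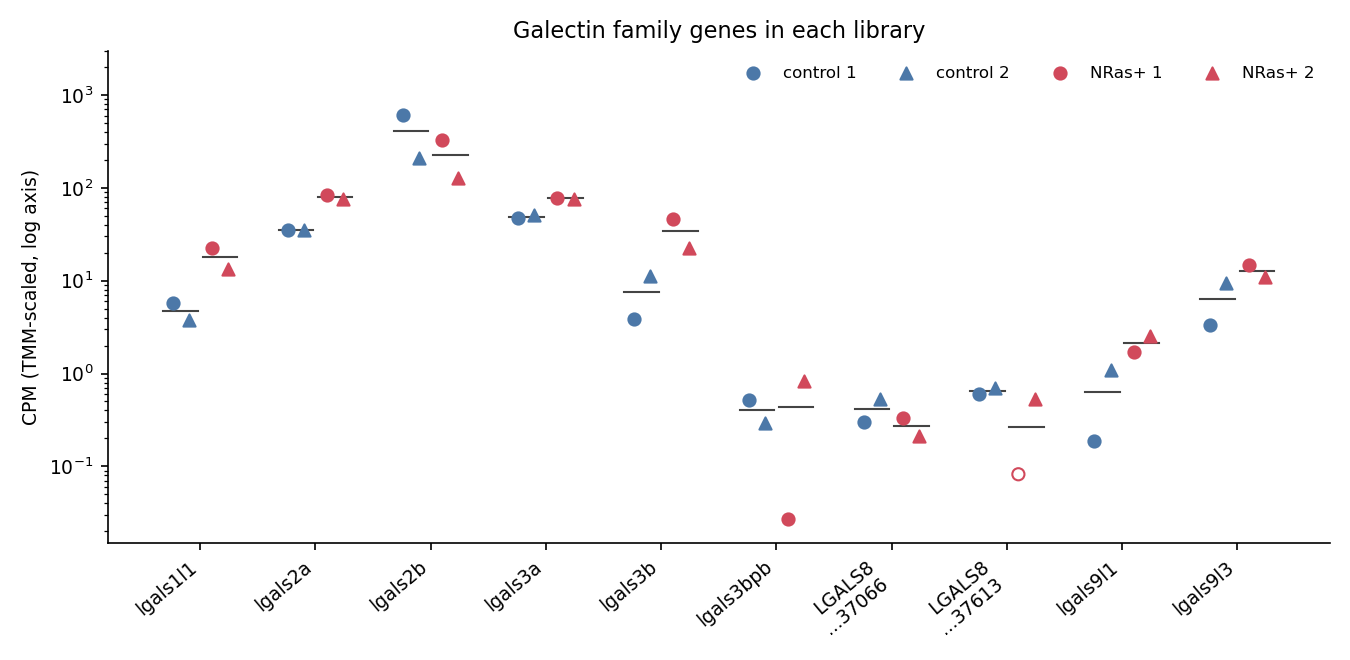
CPM of the 10 galectin family genes in each library on a log axis, with controls in blue, NRas+ in red, replicate 1 as circles, replicate 2 as triangles, and group means (n = 2) as lines. The red points of lgals1l1, lgals2a, lgals3a, lgals3b, lgals9l1 and lgals9l3 lie above both blue points, and the open circle marks a library with no count, drawn at 3 counts.

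In 6 members both NRas+ libraries lay above both controls after scaling, namely lgals1l1, lgals2a, lgals3a, lgals3b, lgals9l1 and lgals9l3. Among all genes tested 20.5% showed this order, also after scaling. Relative to unscaled library totals, lgals3a, lgals9l1 and lgals9l3 did not show it. In 1 member, the LGALS8 row ENSDARG00000037613, both NRas+ libraries lay below both controls, beside 21.8% of all genes. Without lgals3b and lgals1l1, 4 of the remaining 8 members had the NRas+ libraries above the controls and the median log2 fold change was 0.45. Of these 8, 1 had an unadjusted p under 0.05 in edgeR, and 0 of the 6 with an adjusted p in DESeq2 passed.

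Among the galectin 1 and galectin 2 genes, lgals1l1 (ENSDARG00000088711) was at 5.80 and 3.75 CPM in the controls and at 22.3 and 13.3 CPM in NRas+. The lower NRas+ library was still 2.30-fold above the higher control. Group means were 4.78 ± 1.45 and 17.8 ± 6.34 CPM (SD, n = 2 each), and the fitted log2 fold change was 1.94 with a standard error of 0.52. It did not pass in edgeR (adjusted p = 0.128) but did in DESeq2 (adjusted p = 0.0377). Leaving out 1 library at a time moved the log2 fold change between 1.51 and 2.28.

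lgals2a (ENSDARG00000054942) was at 35.1 and 35.4 CPM in the controls and at 84.3 and 76.0 CPM in NRas+. Its replicates thus lay close together in both groups after scaling. The closeness of the controls, with 943 and 1937 raw counts, rests on that scaling. Its means were 35.3 ± 0.256 and 80.2 ± 5.90 CPM (SD, n = 2 each). The log2 fold change was 1.18 (standard error 0.37), that is 2.27-fold, and neither edgeR (adjusted p = 0.204) nor DESeq2 (0.0821) called it. With 1 library left out it stayed between 1.11 and 1.29, a range narrower than that of any other member except lgals3a. lgals2a and lgals1l1 lie side by side on chromosome 3 with no other coding gene between them in the RefSeq annotation of assembly GRCz12tu, which served only for gene names and order. The 2 genes are paralogs, and reads that fit both could have been lost or split between them.

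lgals2b (ENSDARG00000038153), the third gene of this type, had a fold change below 0. It was at 612 and 210.3 CPM in the controls and at 327 and 129 CPM in NRas+. The groups overlapped, since NRas+ 1 lay above control 2. On the log2 scale it was -0.85 (standard error 0.52; edgeR adjusted p = 0.577), and without control 1 it was 0.13. Within both groups replicate 1 was the higher library. Control 1 was 2.91-fold above control 2, and NRas+ 1 was 2.53-fold above NRas+ 2.

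Replicate 1 was also the higher library of each group in the summed skin markers, although NRas+ 1 and not control 1 was highest in that sum. The summed CPM of 23 epidermis rows was 2.30-fold higher in control 1 than in control 2 and 2.38-fold higher in NRas+ 1 than in NRas+ 2, and for the keratin gene krt4 these values were 3.46 and 2.94. The keratin gene krt8 differed less, by 1.16-fold and 1.09-fold, and at 744 and 642 CPM in controls and 431 and 395 CPM in NRas+ it was highest in control 1. The 10 intestine and liver rows gave 2.00 and 1.76. The macrophage list gave 1.95 and 1.62, the skeletal muscle list 2.30 and 1.09, and the erythrocyte list 1.71 and 1.16. The macrophage sums were mostly apoeb, which gave 1.79 and 1.70. The summed neutrophil and melanocyte lists were higher in replicate 2 of both groups, and the neuron and lens lists in replicate 2 of NRas+ only. In the neutrophil list srgn had this order, whereas lyz was 4.20-fold higher in control 1 than in control 2. The part of any of these tissues in the lgals2b values was not tested.

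**Figure D2:**
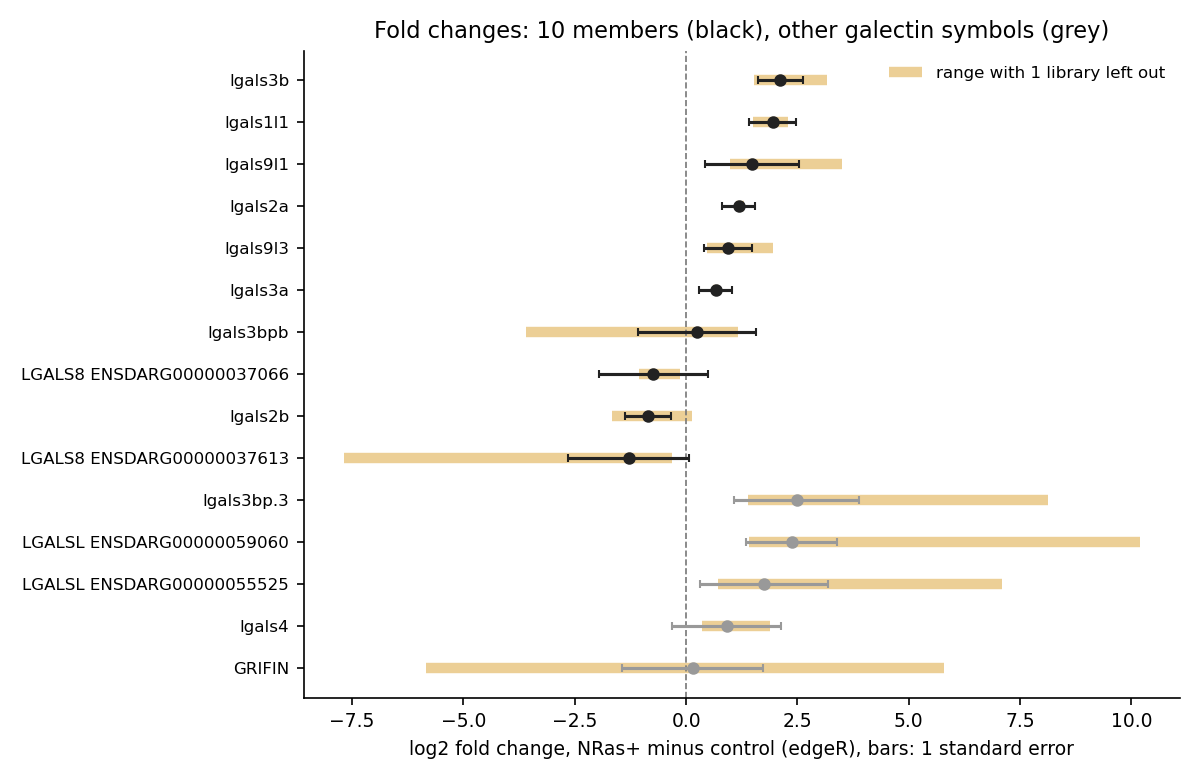
Log2 fold changes of NRas+ against control from edgeR with 1 standard error for the 10 members in black and for 5 other rows with a galectin symbol in grey, and, as wide bars, the range with 1 library left out. lgals2a and lgals3a have the narrowest bars, while the bars of lgals2b, lgals3bpb and GRIFIN cross 0. Bar ends past 5 in size come from fits in which a group was left with no count and have no meaning as a size.

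The galectin 3 genes differed in size of change. lgals3b (ENSDARG00000044001) was at 3.91 and 11.2 CPM in the controls and at 46.7 and 22.3 CPM in NRas+. Here the replicates themselves were 2.88-fold apart in the controls and 2.097-fold apart in NRas+, and the closest libraries of the groups were 1.98-fold apart. The log2 fold change of 2.12 (standard error 0.51) was the highest of the family but did not pass over all genes (edgeR adjusted p = 0.0843). The call turned on the settings. It was made with DESeq2 (adjusted p = 0.0163), with the likelihood ratio test (0.0258), when each library had to hold 10 counts or more (0.0437), and without control 2, where the log2 fold change was 3.17 (edgeR adjusted p = 0.0232). With each of the other libraries left out it was not made, and the log2 fold change was 1.63 without control 1, 1.53 without NRas+ 1 and 2.62 without NRas+ 2.

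lgals3a (ENSDARG00000077850), the paralog on chromosome 13, was at 46.8 and 51.0 CPM in the controls and at 78.1 and 76.7 CPM in NRas+. After TMM scaling its replicates were nearly level within each group, and the groups did not overlap. Its raw counts were 1258 and 2788 in the controls and 2848 and 2920 in NRas+. Relative to unscaled library totals, control 2 lay above both control 1 and NRas+ 1. The fold change was 0.66 on the log2 scale (standard error 0.37, edgeR adjusted p = 0.523), or 1.58-fold. With 1 library left out it ranged from 0.61 to 0.75. lgals3bpb (ENSDARG00000040528), the galectin 3 binding protein gene, which is also in use as a macrophage marker in zebrafish, had 14 and 16 counts in the controls and 1 and 32 counts in NRas+. Its NRas+ libraries thus lay on either side of both controls, and the log2 fold change of 0.25 (standard error 1.33) turned to -3.60 without NRas+ 2 and to -0.22 without control 2. The macrophage list of 22 rows summed to 286 and 146 CPM in controls and 371 and 229 CPM in NRas+, also overlapping. Most of each sum was apoeb, at 231 and 129 CPM in controls and 341 and 201 CPM in NRas+. grna.1, the next by counts, was at 21.9 and 1.79 CPM in controls and 10.9 and 7.38 CPM in NRas+. Of 18 macrophage rows tested 8 were above 0 and 10 below, with a median log2 fold change of -0.05.

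The galectin 8 genes were near the limit of detection. The row ENSDARG00000037066 had 8 and 29 counts in the controls and 12 and 8 counts in NRas+. The row ENSDARG00000037613 had 16 and 38 counts in the controls and 0 and 20 counts in NRas+, and the 0 allows up to 0.0822 CPM in that library, for counting error only. Their log2 fold changes were -0.74 (standard error 1.22) and -1.29 (standard error 1.36), and without NRas+ 2, which leaves no count in that group, that of the second row has no finite size. At this depth no difference between the groups was detectable in either.

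The galectin 9 genes, which in mammals include a ligand of TIM-3, an inhibitory receptor of T cells, were low in control 1. lgals9l3 (ENSDARG00000041060) was at 3.35 and 9.40 CPM in the controls and at 14.8 and 10.9 CPM in NRas+. After scaling the groups did not overlap, but NRas+ 2 was only 1.16-fold above control 2. The raw counts were 514 in control 2 and 416 in NRas+ 2. lgals9l1 (ENSDARG00000025903) had 5 and 59 counts in the controls and 62 and 96 counts in NRas+, or 0.186, 1.08, 1.70 and 2.52 CPM. The controls of lgals9l1 were 5.80-fold apart, more than those of any other member. The log2 fold changes of lgals9l3 and lgals9l1 were 0.93 (standard error 0.54, edgeR adjusted p = 0.544) and 1.48 (standard error 1.05, edgeR adjusted p = 0.641). Without control 1, whose values were the lowest in both genes, they were 0.46 and 0.98, and without control 2 they were 1.96 and 3.50.

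These genes sit on chromosome 15 in a cluster with lgals9l4, lgals9l5 and lgals9l6. The cluster was not evenly used. lgals9l4 and lgals9l6 had no count in any library, which allows up to between 0.0549 and 0.112 CPM, and lgals9l5 had 2 counts in control 2 and none elsewhere. Counts of near-identical neighbours are uncertain, since reads that fit more than 1 of them may not have been counted.

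Of the 9 other rows with a galectin symbol, 5 had enough counts for a test. All 5 had a log2 fold change above 0, where 47.9% of all genes tested did. In these 5 rows control 1 had no count, or 4 in lgals4, so each passed the filter only with an NRas+ library. The filter could therefore partly set their shared direction, although GRIFIN and the LGALSL row ENSDARG00000055525 needed control 2 as well to pass it. In edgeR 0 passed, in DESeq2 0 of the 2 that received an adjusted p passed, and 1 had an unadjusted p under 0.05 in edgeR. That 1 was a row named LGALSL (ENSDARG00000059060), a galectin-like gene whose human counterpart lacks galactoside binding. It had 0 and 71 counts in the controls and 238 and 80 counts in NRas+, with a log2 fold change of 2.37 (standard error 1.02, edgeR adjusted p = 0.381). The second LGALSL row (ENSDARG00000055525) had 0, 12, 28 and 9 counts in control 1, control 2, NRas+ 1 and NRas+ 2. Both rows were without a count in control 1 and highest in NRas+ 1.

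The galectin 3 binding protein paralog lgals3bp.3 had 0, 15, 17 and 60 counts in the same order, and its neighbour lgals3bp.2 had 5, 0, 0 and 13 and was not tested. lgals4, an intestinal galectin in mammals, had 4, 20, 27 and 14 counts. GRIFIN, the galectin-related protein of the lens fibre, had 0, 15, 0 and 15, so that it was seen in replicate 2 of each group. The lens list was at 8.59 and 8.54 CPM in controls and at 3.62 and 138 CPM in NRas+. Of the 5 tested rows, all but GRIFIN had both NRas+ libraries above both controls, an order that 20.5% of all genes tested showed. Between the closest libraries the gap was 1.62-fold for LGALSL ENSDARG00000059060 and 1.01-fold for lgals4. For lgals4 and LGALSL ENSDARG00000055525 this order held only after scaling. Their raw counts were 20 and 12 in control 2 but 14 and 9 in NRas+ 2.

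The make-up of the family differed between libraries, and lgals2b took the largest share in each. Its share of the family's counts was 86.4% and 65.0% in the controls and 56.8% and 38.9% in NRas+. The summed CPM of all 10 members was 708 and 324 in the controls and 575 and 333 in NRas+, with no separation of the groups. Without lgals2b, a choice made after its values were seen, the sum was 96.5 and 113 CPM in the controls and 248 and 203 CPM in NRas+.

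Ratios of counts between members of the same library need no scaling between libraries, and were compared across libraries only, since transcript lengths differ. For each count of lgals2a there were 17.4 and 5.93 counts of lgals2b in the controls and 3.88 and 1.70 in NRas+, so that the NRas+ libraries lay below both controls. The ratio of lgals3b to lgals3a was 0.0835 and 0.220 in the controls and 0.598 and 0.290 in NRas+, again without overlap. That of lgals1l1 to its neighbour lgals2a was 0.165 and 0.106 against 0.264 and 0.175, where control 1 and NRas+ 2 nearly met. The ratio of lgals3b to lgals1l1, the genes with the highest fold changes, was 0.673 and 2.995 in the controls and 2.096 and 1.67 in NRas+ and overlapped, as control 1 was low and control 2 high. These ratios are given without a test, as 2 libraries a group are too few for an exact permutation test to reach the threshold. They come from the same counts as the fold changes and are no separate evidence. How often other gene pairs separate the groups was not computed.

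**Figure D3:**
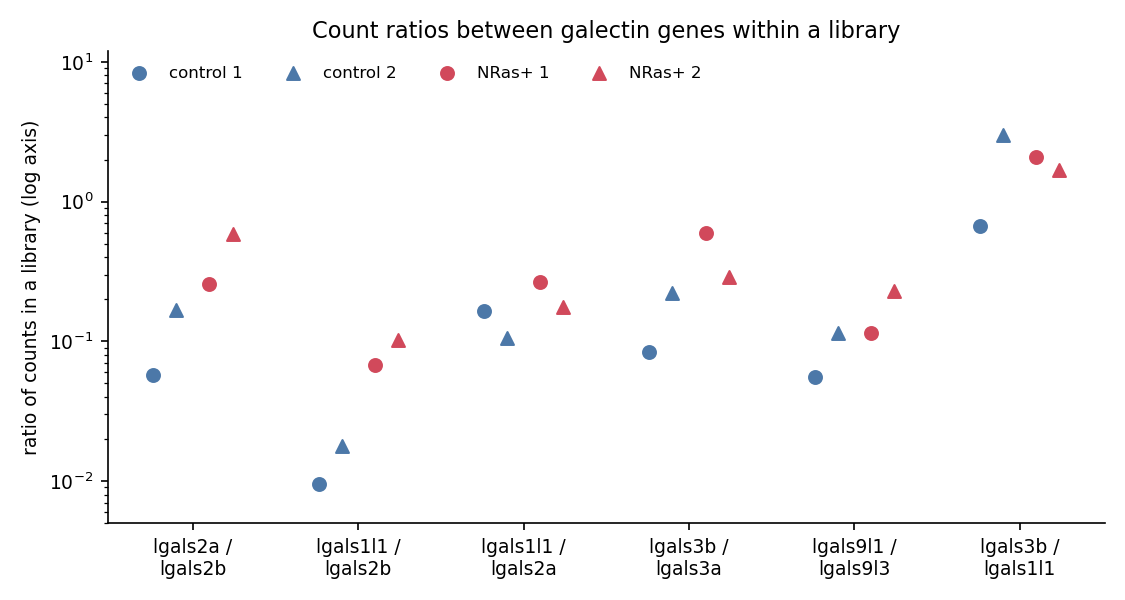
Ratios of counts between galectin genes within each library on a log axis, with controls in blue, NRas+ in red, replicate 1 as circles and replicate 2 as triangles. The ratios of lgals2a and lgals1l1 to lgals2b and of lgals3b to lgals3a lie higher in each NRas+ library than in either control, whereas that of lgals3b to lgals1l1 overlaps.

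Galectins act through partners, which were described from lists of genes that build their sugar ligands, carry those sugars or meet galectins inside the cell. Of 72 partner genes tested, 1 passed over all genes, calcoco2, where 0.169% of all genes passed. The lists were chosen with earlier results of these data known, so that call is not independent evidence. At an unadjusted p under 0.05 there were 4 higher and 5 lower, or 9 of 72 where 11.3% of all genes had such a p. Both NRas+ libraries lay above both controls in 18 of the 72 and below them in 19, beside 20.5% and 21.8% of all genes. Over all 72 the median log2 fold change was -0.25, and 27 were above 0, where 47.9% of all genes were. Among 24 tested genes for N-glycan branching and galactose addition 7 were above 0 and 17 below, with a median log2 fold change of -0.08, none passed, and MGAT4A (-1.51, edgeR adjusted p = 0.412) alone had an unadjusted p under 0.05. Among 28 tested glycoprotein ligand genes 9 were above 0 and 19 below, with a median of -0.51, and none passed. Among 20 tested genes for damaged endosomes and intracellular partners 11 were above 0 and 9 below, with a median of 0.06.

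calcoco2 (ENSDARG00000052515) is the zebrafish gene named after human NDP52, an autophagy receptor that binds galectin 8 on broken vesicles. It was at 3.57 and 7.04 CPM in the controls and at 41.4 and 31.2 CPM in NRas+, and the lower NRas+ library was 4.43-fold above the higher control. The transcript rose 6.56-fold, or by 2.71 on the log2 scale (standard error 0.47, edgeR adjusted p = 0.0176), with means of 5.31 ± 2.46 and 36.3 ± 7.16 CPM (SD, n = 2 each). DESeq2 gave an adjusted p of 2.75e-05. Among the alternatives with no replicate block, the call was lost without control 1 (edgeR adjusted p = 0.125), without NRas+ 1 (0.335), without NRas+ 2 (0.0969) and in the legacy quasi-likelihood fit (0.123), while the log2 fold change stayed between 2.38 and 3.37 with 1 library left out. Both LGALS8 rows, the zebrafish genes of its galectin partner, had log2 fold changes below 0, neither past the threshold.

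**Figure D4:**
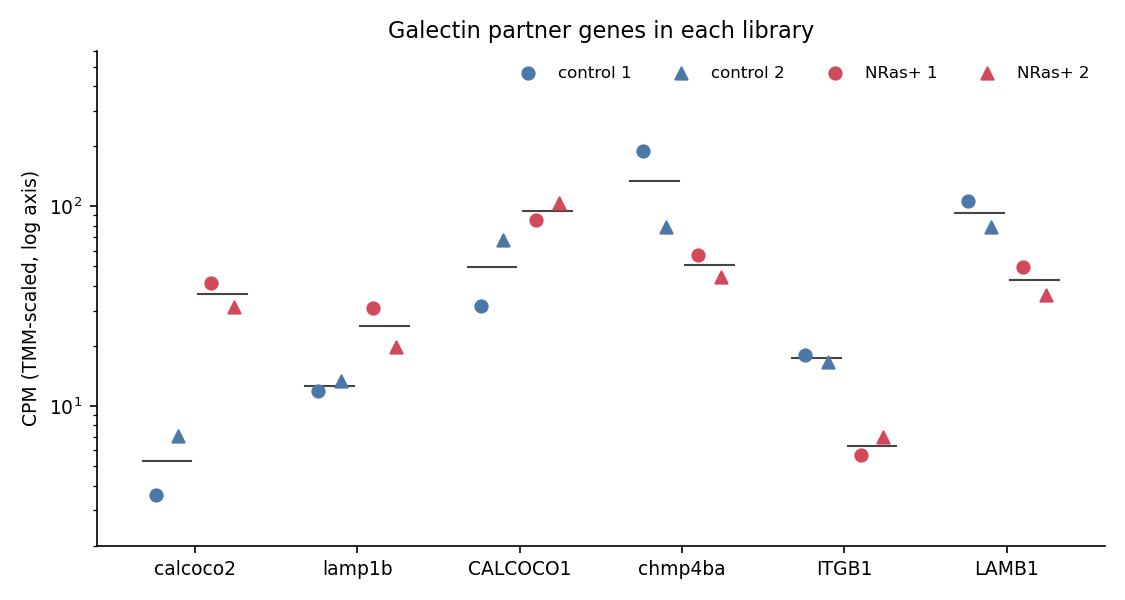
CPM of the 6 named galectin partner genes in each library on a log axis, with controls in blue, NRas+ in red, replicate 1 as circles, replicate 2 as triangles and group means (n = 2) as lines. calcoco2 shows the widest gap between the groups and is the only gene of the 6 that passed the adjusted threshold by edgeR with all 4 libraries.

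None of the other partner genes passed, and the 5 chosen by the smallest unadjusted p are given here. lamp1b, a lysosomal membrane glycoprotein gene whose mammalian counterpart binds galectin 3, was at 11.8 and 13.4 CPM in the controls and at 30.8 and 19.7 CPM in NRas+ (log2 fold change 0.99, standard error 0.43). The CALCOCO1 row ENSDARG00000036695, a relative of calcoco2, was at 31.6 and 68.0 CPM in the controls and at 85.3 and 103 CPM in NRas+ (0.91, standard error 0.41), with 0.48 without control 1 and 1.60 without control 2. Both had the NRas+ libraries above the controls, but only after scaling. The raw counts of lamp1b were 732 in control 2 and 749 in NRas+ 2, and those of CALCOCO1 were 3717 in control 2 and 3113 in NRas+ 1. Relative to unscaled library totals, control 2 was the higher library in each of these pairs.

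The remaining 3 of these 5 had the NRas+ libraries below the controls. An ITGB1 row (ENSDARG00000104484), a β1 integrin subunit and so a class of galectin 3 ligand in mammals, was at 18.0 and 16.6 CPM in the controls and at 5.67 and 6.96 CPM in NRas+ (log2 fold change -1.45, standard error 0.48, edgeR adjusted p = 0.232). The LAMB1 row ENSDARG00000101209, a laminin β1 chain gene, was at 107 and 78.5 CPM and at 49.9 and 36.0 CPM (-1.11, standard error 0.38). No other row named ITGB1, LAMB1 or CALCOCO1 had an unadjusted p under 0.05 in edgeR. chmp4ba, an ESCRT-III subunit gene, was at 188 and 78.7 CPM and at 57.1 and 44.05 CPM (-1.40, standard error 0.43), and passed without control 2 (-1.87, edgeR adjusted p = 0.01496) but under none of the other alternatives, with -0.63 without control 1. ITGA5 and cd44a, like MGAT4A above named after their values were seen, also had an unadjusted p under 0.05, with log2 fold changes of -0.88 and 2.78, and cd44a had 1 and 30 counts in the controls and 172 and 18 counts in NRas+.

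Markers of other tissues also differed between libraries. Of 25 skeletal muscle rows 23 were above 0, where 47.9% of all genes tested were. Their summed CPM was 304192 and 132085 in the controls and 437007 and 402545 in NRas+, without overlap. Of 23 epidermis rows 17 were above 0, and their sum was 5247 and 2285 CPM in controls and 7187 and 3019.6 CPM in NRas+, which overlapped. Only cldne, a claudin, passed among them in edgeR, and no muscle row did, where 0.169% of all genes passed. With DESeq2, 5 muscle and 2 epidermis rows were higher, beside 1.26% of all genes, and none was lower, beside 0.79%. The melanocyte list summed to 176 and 283 CPM in controls and 170 and 205 CPM in NRas+, which overlapped. Of 11 melanocyte rows tested 3 were above 0 and 8 below, with a median log2 fold change of -0.56. In 4 both NRas+ libraries lay below both controls and in 0 above them, beside 21.8% and 20.5% of all genes. No row of the muscle or epidermis list was without a count in any library. The part of muscle or skin RNA in the galectin values was not tested, and leaving the muscle list out of the scaling moved no member's log2 fold change by more than 0.01.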

How the data were processed

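Nuclear RNA of 2 control and 2 NRas+ libraries was amplified by SMART-seq. Mapping to danRer10 used STAR 2.4.2a, and the authors deposited featureCounts output as raw counts for each Ensembl gene and library, neither normalized nor pooled. Standard counting parameters ignore strand whereas the labels name a reverse strand, so counts of overlapping or antisense genes are uncertain. The Ensembl release is not given in the sources used here.

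A table of gene names paired 26121 of 31952 genes with a symbol. Counts were filtered with filterByExpr (20099 genes kept), scaled by TMM and compared by edgeR 4.0.16 (quasi-likelihood test, Benjamini-Hochberg adjustment over all genes tested, threshold 0.05, R 4.3.3). The fit had no covariate. A count of 0 was taken to allow 3 counts. Counts are amplified reads, so such limits cover counting error only. The labels do not say that libraries of a group came from separate clutches, and the study calls its replicates both biological and technical, so p-values measure the spread between these libraries.

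Named genes are the 10 members, all other rows with a galectin symbol, partner genes past the threshold, and up to 3 non-overlapping partner genes in each direction with the smallest unadjusted p under 0.05. Of each marker list the rule also names the leading pair of genes by count, given here only where the list lies beside a result, and lyz and mpx. The members and lists were chosen with earlier results of these data known. Marker lists for erythrocytes and neurons gave medians of 0.23 and -0.16 on the log2 scale. Alternatives were DESeq2 1.42.0, the likelihood ratio test, the legacy fit, RLE size factors, TMM without muscle genes, other filters, the replicate block and leaving out each library.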

Additional observations from a re-analysis of the deposited data

How the results depend on the processing

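The median log2 fold change of the 10 members, 0.80, ranged from 0.61 to 1.09 over all 12 alternatives, the highest over the 6 members with at least 10 counts in every library. The number of members past the threshold, 0, was 2 with DESeq2, 1 with the likelihood ratio test, 1 with at least 10 counts in every library, 3 at an unadjusted p, and between 0 and 1 with 1 library left out. The number of partner genes past it, 1, was 0 in the legacy fit, 0 with the replicate block, 9 at an unadjusted p, and between 0 and 2 with 1 library left out. The cause was not tested. With 1 library left out, the log2 fold change ranged from -1.67 to 0.13 for lgals2b, from -3.60 to 1.16 for lgals3bpb and, for GRIFIN, which is not among the 10, from -5.83 to 5.80, both from fits in which a group had no count, so that neither is a size. Of the 10 members the other 8 kept their direction under every alternative that gave them a value. The lone library of a group was then assumed to vary like those of the other.

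Over all genes, 26 were higher and 8 lower, against 233 and 146 with DESeq2, 137 and 93 with the likelihood ratio test, 10 and 0 in the legacy fit, 19 and 2 with no filter, and 88 and 63 under the filter of 10 counts. Other scalings moved the median over all genes by less than 0.1 on the log2 scale, while it was 0.15 without control 2 and -0.18 without NRas+ 2. Libraries of the 2 groups share replicate numbers, but nothing in the labels says what a number marks. Differences between replicates 1 and 2 correlated by 0.147 between the groups across genes. With the replicate block 7 genes were higher and 0 lower, the block gave an adjusted p of 0.131 for calcoco2 in edgeR, and no member passed or changed direction. Members under 1 CPM in every library, lgals3bpb and both LGALS8 rows, are limited by depth.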
